A study of Mus musculus with 20 samples.

Results

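Transcripts of 10 genes of the endoplasmic reticulum (ER) stress and integrated stress response, Hspa5, Xbp1, Herpud1, Dnajb9, Atf4, Ddit3, Trib3, Chac1, Asns and Atf3, were followed in mouse liver after exposure to polychlorinated biphenyls (PCBs). They were chosen by name, as the rows of the deposited count table whose Ensembl gene numbers carry these symbols in the GENCODE M21 annotation. These were 11 of 21780 rows, because a short second gene inside the Ddit3 locus has the same symbol. The second Ddit3 gene was at 0 counts in all 20 libraries, and the other 10 rows passed the filter of at least 10 counts in all, as did 15522 genes of the table.

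The livers came from male C57BL/6 mice, 5 per group, all fed a high-fat diet (HFD) with 42% of its calories from fat from 8 weeks of age for 12 weeks. At 10 weeks of age each mouse received a single oral gavage: corn oil alone (HFD control), Aroclor 1260 at 20 mg/kg (a commercial mixture of mostly non-dioxin-like PCBs), PCB 126 at 20 µg/kg (a dioxin-like PCB that activates the aryl hydrocarbon receptor), or Aroclor 1260 and PCB 126 together, called the combined exposure here. The labels give 12 weeks of exposure, whereas the gavage described in the methods fell 2 weeks into the diet. The mice were fasted for about 6 h before they were killed, so all groups share the diet and the fast and none was fed a low-fat diet. Whole liver was sequenced after poly(A) selection, and in such bulk tissue fewer cells of a type and less RNA per cell cannot be told apart.

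Unfolded proteins in the ER lumen engage 3 sensors of the ER membrane, IRE1, ATF6 and PERK. IRE1 splices the Xbp1 transcript, and spliced XBP1 together with cleaved ATF6 drives genes for ER chaperones and for the removal of misfolded proteins. PERK, like the other kinases of eIF2alpha that sense amino acid shortage, heme shortage or viral RNA, lowers general translation while the transcription factor ATF4 is translated more, and ATF4 with its target CHOP (the product of Ddit3) raises genes of amino acid supply and of feedback control. ATF4, XBP1 and ATF6 are controlled largely after transcription, by translation, splicing and cleavage, none of which a count per gene measures.

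Short DNA elements of these routes can be read in the promoters. The ER stress element joins CCAAT and CCACG with 9 bases between them, its second form joins ATTGG and CCACG with 1 base between, and the composite element bound by ATF4 and C/EBP factors reads TGATG, any base, AA. Promoters of all 10 genes were found in RefSeq (build GRCm38.p6), and the 250 bases before each RefSeq start were searched on both strands together with TGACGTGG, an XBP1 element, without counting overlaps between elements apart. The windows that held an element are shown because they set the members that carry one of these letters in this stretch apart from those that do not, with the element's fixed bases in capitals, 5′ to 3′ on the gene's strand.
Hspa5, chr2:34772020-34772049, + strand: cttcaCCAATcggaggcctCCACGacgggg
Asns, chr6:7693214-7693243, − strand: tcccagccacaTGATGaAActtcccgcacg
Atf3, chr1:191183425-191183454, − strand: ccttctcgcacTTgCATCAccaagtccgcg
Chac1, chr2:119351038-119351067, + strand: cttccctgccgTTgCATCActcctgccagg
Herpud1, chr8:94386179-94386428, + strand: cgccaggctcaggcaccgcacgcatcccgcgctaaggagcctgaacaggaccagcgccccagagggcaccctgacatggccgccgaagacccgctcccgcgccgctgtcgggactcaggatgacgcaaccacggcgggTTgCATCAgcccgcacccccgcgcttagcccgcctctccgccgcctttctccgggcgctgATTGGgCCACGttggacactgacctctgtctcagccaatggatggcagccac

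The ER stress element lay whole in the Hspa5 window alone of the 10, 65 bases before its start, and in 0.113% of 32851 promoters. Its second form lay 52 bases before the start of Herpud1, and in 0.0304% of promoters. The Herpud1 window also ends in CCAAT and CCAC at the spacing of the first form, cut before that form's last base. Whether the next base completes it was not read. The composite element was found in 4 of the 10 windows and in 3.45% of all promoters: it lay on the gene's strand 23 bases before the start of Asns and on the opposite strand 110, 112 and 193 bases before the starts of Atf3, Herpud1 and Chac1. The Hspa5, Asns and Atf3 stretches lie inside the gene as GENCODE draws it, which begins further upstream, and those of Chac1 and Herpud1 lie before the annotated gene. None of these elements was found whole in the windows of Ddit3, Atf4, Trib3, Xbp1 and Dnajb9, and TGACGTGG, present in 0.563% of promoters, was in none of the 10. A match describes the letters and no more. The Ddit3 stretch is shown as well, cut where the annotated gene begins, because Ddit3 passed the test in more of the alternative fits than any other member. It holds none of the elements whole. On the opposite strand it reads CCAAT and GCACG with 9 bases between, which differs from the ER stress element in 1 base. Near matches were not searched for in the promoters.
Ddit3, chr10:127290543-127290773, + strand: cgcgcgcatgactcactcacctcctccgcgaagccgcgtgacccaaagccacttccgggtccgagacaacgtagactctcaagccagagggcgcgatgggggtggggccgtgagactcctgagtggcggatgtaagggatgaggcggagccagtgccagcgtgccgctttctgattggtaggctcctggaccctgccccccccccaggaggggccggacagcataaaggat

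The libraries held between 21836506 and 36854887 counts in genes, and controls spanned this whole range. Every Aroclor 1260 library (31265022 to 35611837) was deeper than every combined one (23471120 to 29366462). PCB 126 libraries held 24212471 to 33131408. The part of depth in the values of the 10 genes was not tested. As a check of the labels, Cyp1a2, an aryl hydrocarbon receptor target, lay between 1120 and 2601 counts per 1000000 counts of the scaled library (CPM) with PCB 126 and between 537 and 992 CPM with the combined exposure, both above the highest control of 517 CPM. Cyp1a1, a second such target, lay between 4.09 and 314 CPM with PCB 126, but between 0.792 and 2.62 CPM with the combined exposure against 0.219 to 0.940 CPM in controls, and there it did not pass the test (adjusted p = 0.502). Of 9 exposure markers, only these 2 passed the test with PCB 126, as did 0.116% of all tested genes. Cyp1b1, Nqo1, Tiparp and Ahrr did not (log2 fold change -0.88, 0.17, 0.31 and 0.31). With Aroclor 1260 none of the 9 passed, and neither did any other gene (0.0%), Cyp2b10 being at 1.97 (adjusted p = 0.222). The check therefore does not reach the Aroclor 1260 label. One further property of the libraries moved with the groups. In each library, the deviation of each gene's log2 level from that gene's mean over the 20 libraries was set against its G+C content. That content is of its exons, pooled over its annotated transcripts. The slope, per 10 percentage points, was 0.234 ± 0.131 in control, −0.000748 ± 0.0736 in Aroclor 1260, 0.103 ± 0.189 in PCB 126 and −0.337 ± 0.163 in combined libraries (mean ± SD, n = 5). These slopes compare libraries and do not relate the level of a gene to its composition. All 5 combined libraries lay below all 5 controls (exact two-sided permutation test, p = 0.00794, the smallest that 252 splits allow). Aroclor 1260 also differed from control (exact p = 0.0159) and PCB 126 did not (exact p = 0.222). Genes of high G+C content therefore read lower, and genes of low G+C content higher, in the combined libraries, and changes against control in that group are given below with and without a correction for this slope. What made the slopes differ was not tested.

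In control livers the 10 transcripts spanned a wide range of levels. Per kilobase of exon (FPKM, CPM divided by exon length in kb), Hspa5 stood at 242 ± 125 (SD, n = 5) and Herpud1 at 233 ± 106, and their ranges overlapped. Xbp1 followed at 77.03 ± 18.7 and Atf4 at 40.8 ± 7.39 FPKM, each with a range apart from the gene above it. Atf3 (16.96 ± 13.5), Dnajb9 (15.7 ± 6.62), Trib3 (6.22 ± 3.21), Ddit3 (4.78 ± 1.78), Chac1 (3.49 ± 2.85) and Asns (0.759 ± 0.947) came below, and each of them overlapped the next in that order, as Atf4 did with Atf3. In the 3 exposed groups the order was nearly kept: Herpud1 stood above Hspa5, Dnajb9 stood above Atf3 in Aroclor 1260 and combined livers, and Chac1 above Ddit3 in PCB 126 livers, all pairs with overlapping ranges.

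The spread between mice also differed by gene. In controls the highest mouse exceeded the lowest by a factor of 24.3 for Atf3, 19.5 for Asns and 5.34 for Chac1, against 1.64 for Atf4 and 1.75 for Xbp1. The stress transcripts Hspa5, Ddit3 and Herpud1 lay between these, at 3.53, 2.66 and 2.93. The SE of the log2 fold changes of Atf3, Asns and Chac1 was between 0.48 and 0.69 in the 5 comparisons of 2 groups, against about 0.15 for Atf4.

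**Figure D1:**
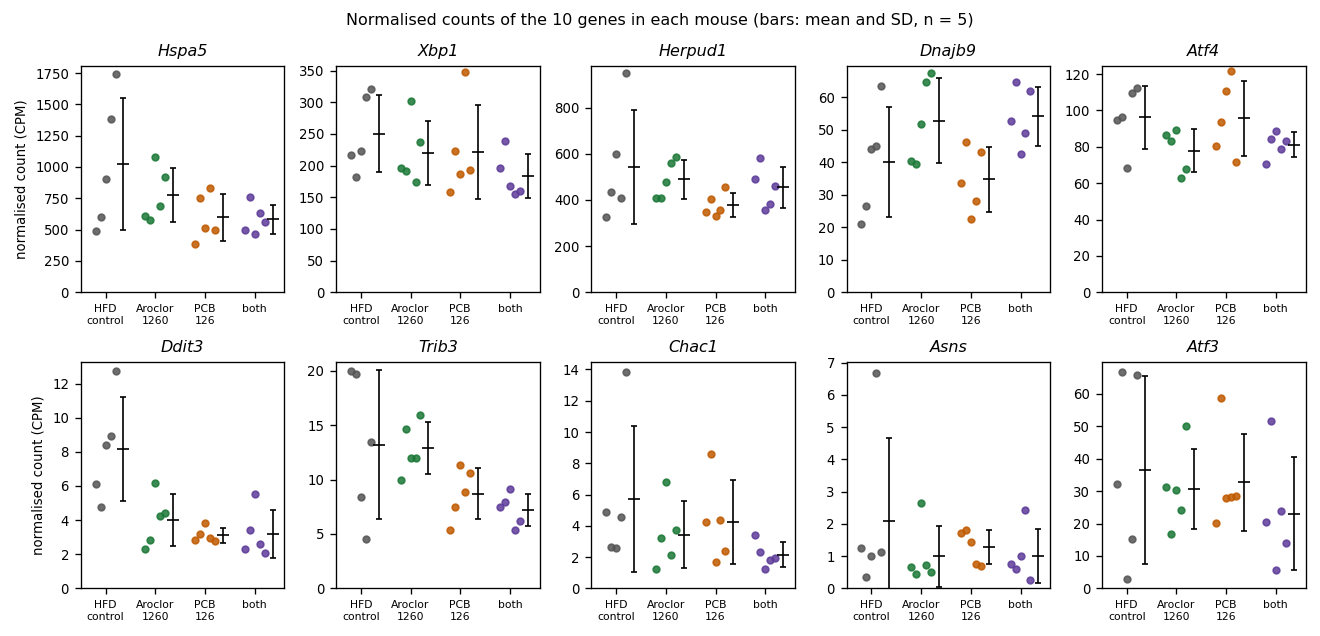
Normalized counts (CPM, linear axes from 0) of the 10 genes in each of the 20 mice, by group; points are mice and the bar beside them is the mean ± SD (n = 5, cut at 0 for Asns). Ddit3 was between 2.78 and 3.84 CPM in the PCB 126 mice, below all 5 controls, while the control values of Hspa5 ran from 493 to 1739.9 CPM.

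With the combined exposure, 4 of the 10 transcripts were lower than in HFD controls and none was higher. These were Ddit3, Hspa5, Trib3 and Chac1, with fitted levels between 0.375 and 0.568 of control. In the same comparison 32.8% of all tested genes were called at an adjusted p under 0.05, and 17.0% were called lower (15.8% higher). The median log2 fold change was -0.74 over the 10 genes and -0.00096 over all genes tested, and 9 of the 10 were below 0. After the correction for G+C content, Hspa5 and Ddit3 were still called lower and Trib3 and Chac1 were not, in a fit that called 9.13% of all genes, 5.37% lower. DESeq2 called the same 4 members and 36.2% of all genes. With the slope itself as a term of the model, which separates these groups completely, none of the 10 was called, in a fit that called 2.16% of all genes. The changes themselves were then -1.21 for Hspa5, -0.84 for Ddit3 and -1.97 for Chac1, still below 0, and 0.59 for Trib3. Leaving out 1 mouse gave between 1 and 4 called members: 1 (Ddit3) without combined replicate 5, 2 without combined replicate 3 or 4, and 3 or 4 otherwise. Without control replicate 5 the 3 were Ddit3 and Trib3, both lower, and Dnajb9, which was higher (0.66, adjusted p = 0.0442). That mouse held the highest control value of Hspa5, Ddit3, Atf4, Xbp1, Herpud1, Dnajb9 and Chac1, though not of Trib3, Asns or Atf3. The changes of the 10 genes against control are therefore not separate observations.

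**Figure D2:**
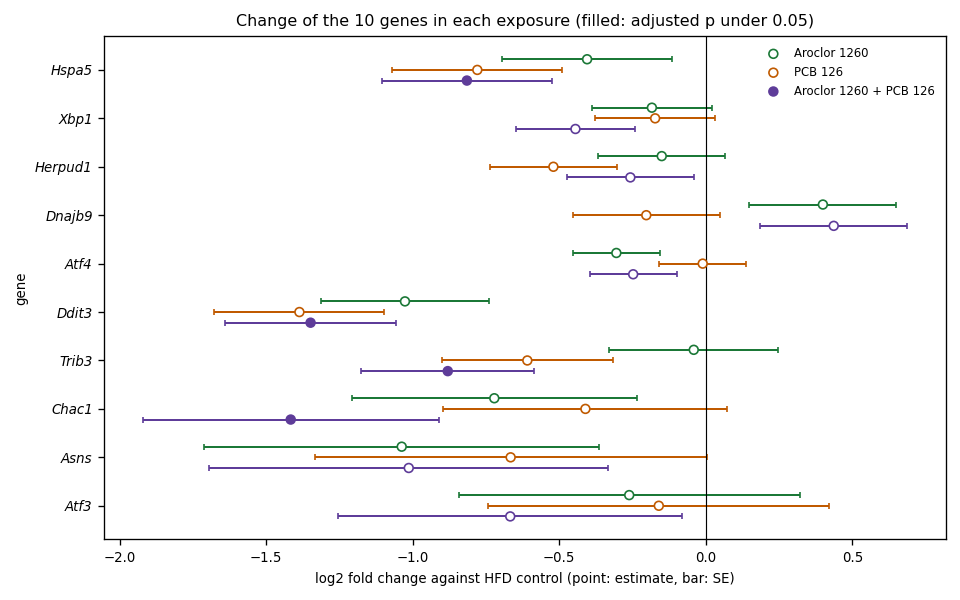
Log2 fold change against HFD control of each gene in the 3 exposures (points, bars show the SE; filled points passed an adjusted p of 0.05). All 4 filled points belong to the combined exposure (Hspa5, Ddit3, Trib3 and Chac1), and Ddit3 lies below -1 in all 3 exposures.

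Hspa5 encodes BiP, the major chaperone of the ER lumen, which holds the sensors inactive until unfolded proteins draw it away. It was at 493, 602, 905, 1386 and 1739.9 CPM in the 5 control mice and at 467, 499.9, 560.1, 629.7 and 757 CPM in the 5 mice of the combined exposure. The groups overlapped, since 2 controls were as low as the exposed mice while the other 3 stood above all of them. Means were 1025 ± 529 CPM and 583 ± 116 CPM (log2 fold change -0.81, SE 0.29, adjusted p = 0.0367; edgeR quasi-likelihood test, Benjamini-Hochberg adjustment). The correction for G+C content gave -1.04 (adjusted p = 0.0308). The call was lost without control replicate 4 (adjusted p = 0.0778) or 5 (0.145), or without combined replicate 1 (0.0744), 3 (0.0690) or 5 (0.0718), and in a fit of these 2 groups alone (adjusted p = 0.0678). With PCB 126 alone Hspa5 was at 386, 499, 513, 755 and 833 CPM and with Aroclor 1260 alone at 580.4, 605, 687, 919 and 1081 CPM. Those differences, -0.78 (SE 0.29, adjusted p = 0.235) and -0.40 (SE 0.29, adjusted p = 0.4601) on the log2 scale, did not pass the test.

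Ddit3 encodes CHOP, a transcription factor tied to cell death in unresolved ER stress. It was at 4.79, 6.09, 8.39, 8.95 and 12.7 CPM in controls, 2.098, 2.33, 2.62, 3.41 and 5.53 CPM with the combined exposure and 2.78, 2.83, 2.95, 3.19 and 3.84 CPM with PCB 126. Every PCB 126 mouse was below every control, a separation seen in 0.908% of tested genes in that direction, and 4 of the 5 combined mice were below every control, the fifth lying above the lowest control. The change with the combined exposure was -1.35 (SE 0.29, adjusted p = 0.00228), and -1.27 (adjusted p = 0.0115) with the G+C correction. It passed the test in all 10 fits that left out 1 mouse of these groups, with adjusted p-values between 0.000741 and 0.0093. With PCB 126 alone the change was of like size, -1.39 (SE 0.29, adjusted p = 0.0506), just outside the threshold. It was inside it with DESeq2 (adjusted p = 0.00131), the filter on FPKM (0.0361) and the G+C correction (0.0384), and without control replicate 1 (0.0477) or 2 (0.0382) or PCB 126 replicate 3 (0.0382). It stayed outside with upper-quartile scaling (0.0554) and in a fit of these 2 groups alone (0.122). Of the 10 fits that left out 1 mouse of these groups, 3 called it, and the adjusted p reached 0.138. With Aroclor 1260 Ddit3 was at 2.29, 2.86, 4.23, 4.43 and 6.18 CPM, -1.03 (SE 0.29, adjusted p = 0.184), and was called by DESeq2 only (adjusted p = 0.0416). These 3 comparisons share the 5 control mice. Reads of Ddit3 carry one uncertainty: the locus overlaps Mars on the opposite strand and the second Ddit3 gene on its own, and how reads in those stretches were assigned is not given in the sources used here.

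Trib3 encodes a pseudokinase that is induced by ATF4 and CHOP and restrains them and Akt. Its counts were 4.52, 8.43, 13.4, 19.7 and 19.96 CPM in controls and 5.34, 6.19, 7.44, 7.92 and 9.17 CPM with the combined exposure, so that 3 controls stood above all exposed mice and 1 below them. The change was -0.88 (SE 0.30, adjusted p = 0.0272). Trib3 has the highest G+C content of the 10, 59.2% over its pooled transcripts, against a median of 50.2% over tested genes. With the G+C correction its change shrank to -0.18 (adjusted p = 0.699), and with the slope as a term it turned to 0.59 (adjusted p = 0.7005). The call was also lost without control replicate 1 (0.0949) or 2 (0.0840) or combined replicate 4 (0.0565) or 5 (0.0649). In PCB 126 mice Trib3 ran from 5.397 to 11.3 CPM and in Aroclor 1260 mice from 9.98 to 15.9 CPM, neither passing the test (adjusted p = 0.3402 and 0.9497).

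Chac1 encodes an enzyme that degrades glutathione and is induced through ATF4 and CHOP. It was low and uneven, at 2.59, 2.65, 4.56, 4.91 and 13.8 CPM in controls and 1.26, 1.78, 1.92, 2.34 and 3.39 CPM with the combined exposure. The change was -1.42 (SE 0.50, adjusted p = 0.0366), and -0.88 (adjusted p = 0.306) with the G+C correction, Chac1 having 57.4% G+C. One control mouse, replicate 5, at 13.8 CPM, stood far above the other 4. Without it the difference fell to -0.79 (adjusted p = 0.197), and the call was also lost without combined replicate 2 (0.0571), 3 (0.0729), 4 (0.0635) or 5 (0.0751). In the single exposures Chac1 ran from 1.23 to 6.82 CPM with Aroclor 1260 and from 1.69 to 8.603 CPM with PCB 126 (adjusted p = 0.433 and 0.742).

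The other 3 genes of the IRE1 and ATF6 routes were not called in any exposure. Xbp1, the substrate of IRE1, was at 183, 216, 223, 308 and 320.5 CPM in controls and 156, 160.5, 168, 196 and 239 CPM with the combined exposure, -0.44 (SE 0.20, adjusted p = 0.102), and -0.36 (adjusted p = 0.284) with the G+C correction. Spliced and unspliced Xbp1 are counted together here. Herpud1, a membrane protein of ER-associated degradation, was at 324, 409, 433, 599 and 948 CPM in controls. Its means were 543 ± 248 CPM in controls, 489 ± 83.3 CPM with Aroclor 1260, 378 ± 51.6 CPM with PCB 126 and 454 ± 89.7 CPM with both. Its largest difference, with PCB 126, was -0.52 (SE 0.22, adjusted p = 0.283), and that with both was -0.26 (SE 0.22, adjusted p = 0.398), or -0.17 (adjusted p = 0.704) with the G+C correction.

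Dnajb9, an ER co-chaperone of BiP that holds IRE1 inactive, was the 1 gene of the 10 whose mean lay above control in any exposure. Its counts were 20.9, 26.6, 44.2, 45.1 and 63.5 CPM in controls, 39.6, 40.4, 51.7, 64.8 and 67.4 CPM with Aroclor 1260, 22.5, 28.2, 33.8, 43.02 and 46.2 CPM with PCB 126 and 42.5, 49.05, 52.6, 61.9 and 64.6 CPM with both. The differences from control, 0.40 (SE 0.25, adjusted p = 0.399) with Aroclor 1260 and 0.44 (SE 0.25, adjusted p = 0.195) with both, did not pass the test. Dnajb9 has the lowest G+C content of the 10, 41.8%, and after the G+C correction the combined difference was -0.0094 (adjusted p = 0.988). Leaving out control replicate 5, which carried the highest control value, gave 0.66 and an adjusted p of 0.0442.

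Of the remaining genes of the eIF2alpha route, Atf4 varied least. It was at 68.5, 94.6, 96.3, 109.7 and 112 CPM in controls and 70.8, 78.6, 83.1, 84.2 and 88.8 CPM with the combined exposure, -0.25 (SE 0.15, adjusted p = 0.214), which changed sign to 0.11 (adjusted p = 0.711) with the G+C correction at 55.1% G+C. Aroclor 1260 gave -0.30 (SE 0.15, adjusted p = 0.294) and PCB 126 -0.010 (SE 0.15, adjusted p = 0.986). The SE of 0.15 for these values sets the size of an Atf4 change that could have been seen.

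Asns, asparagine synthetase, an ATF4 target of amino acid shortage, was near 1 CPM. It was at 0.342, 0.992, 1.12, 1.25 and 6.67 CPM in controls, 0.438, 0.492, 0.665, 0.7101 and 2.66 CPM with Aroclor 1260, 0.704, 0.747, 1.42, 1.73 and 1.804 CPM with PCB 126 and 0.245, 0.596, 0.748, 1.01 and 2.44 CPM with both. Control replicate 4, at 6.67 CPM, stood far above the other 4 controls. The fitted changes were -1.04 (SE 0.67, adjusted p = 0.415), -0.67 (SE 0.67, adjusted p = 0.682) and -1.01 (SE 0.68, adjusted p = 0.274) in that order, the last being -1.06 (adjusted p = 0.359) with the G+C correction. Without that 1 mouse they were 0.11, 0.48 and 0.13, so that their sign rested on it.

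Atf3, an early-response transcription factor that ATF4 and other stress signals induce, was the most variable of the well-expressed members. Its counts were 2.75, 15.3, 32.1, 65.9 and 66.7 CPM in controls and 5.598, 13.8, 20.4, 23.9 and 51.7 CPM with the combined exposure, -0.67 (SE 0.59, adjusted p = 0.419), and -0.60 (adjusted p = 0.581) with the G+C correction. In PCB 126 mice it was at 20.01, 27.9, 28.3, 28.5 and 58.9 CPM and in Aroclor 1260 mice at 16.9, 24.2, 30.3, 31.1 and 50.1 CPM. No exposure passed the test for Atf3 (adjusted p between 0.419 and 0.928).

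With each PCB alone, edgeR called none of the 10. With PCB 126, 0.116% of all tested genes were called. All 10 fitted changes were below 0, with a median of -0.47 against -0.018 over all genes, 4 had an unadjusted p under 0.05 (Ddit3, Hspa5, Herpud1 and Trib3) as did 14.7% of all genes, and DESeq2 called 1, Ddit3, and 2.06% of all genes. With Aroclor 1260, edgeR called 0.0% of all tested genes, 9 of the 10 changes were below 0 with a median of -0.28 against -0.0135 over all genes, and 1, Ddit3, had an unadjusted p under 0.05 as did 17.2% of all genes. DESeq2 called Ddit3 there too, and 0.87% of all genes.

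The combined exposure was also set against each PCB alone. Against PCB 126, 16.7% of all genes were called and none of the 10 was. The nearest was Dnajb9, higher by 0.64 (SE 0.25, adjusted p = 0.0792), the only member with an unadjusted p under 0.05 (35.6% of all genes had one), which DESeq2 called (adjusted p = 0.0433, 23.8% of all genes called), as did upper-quartile scaling (0.0499), the FPKM filter (0.0386) and a fit of these 2 groups alone (0.0479). With the G+C correction it was 0.30 (adjusted p = 0.421). For Ddit3 and Hspa5 the combined exposure differed from PCB 126 by 0.038 (SE 0.29, adjusted p = 0.939) and -0.036 (SE 0.29, adjusted p = 0.942), and by 0.094 and -0.24 with the G+C correction. The SE of 0.29 leaves room for differences in either direction. Against Aroclor 1260, 0.412% of genes were called and none of the 10 was. The only unadjusted p under 0.05 was that of Trib3, -0.84 (SE 0.29, adjusted p = 0.112), where 23.4% of all genes had one. DESeq2 called Trib3 (adjusted p = 0.0412) and 8.65% of all genes. It was lower in every combined mouse than in every Aroclor 1260 mouse, as were 4.17% of all tested genes, and with the G+C correction the difference was -0.41 (adjusted p = 0.521).

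The interaction term asks whether the combined change departs from the sum of the single ones. None of the 10 passed, and neither did any other gene (0.0% called by edgeR). Only Ddit3 of the 10 had an unadjusted p under 0.05, as did 11.9% of all genes. Its term was 1.06 (SE 0.41, adjusted p = 0.341), with single changes of -1.03 and -1.39 and a combined change of -1.35. DESeq2 called none of the 10 either, and 0.00644% of all genes (1 gene). The interaction and the comparison with PCB 126 take the dose of PCB 126 to be the same with and without Aroclor 1260, as the methods state. Cyp1a1 and Cyp1a2 were lower in every combined library than in every PCB 126 library, and the part of this in the values of the 10 genes was not tested.

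The correction for G+C content moved the combined changes in the order of base composition. It depends on G+C content alone, so this order follows from how it was made and is no separate result. The shift was -0.45 for Dnajb9 and -0.23 for Hspa5 at the low end of G+C content. It was between -0.043 and 0.084 for Asns, Atf3, Ddit3, Xbp1 and Herpud1, which hold 49.3% to 51.8% G+C. At the high end it was 0.36 for Atf4, 0.53 for Chac1 and 0.70 for Trib3. The calls that held, for Hspa5 and Ddit3, therefore belong to genes below or near the median composition, and the calls that were lost to the pair of highest G+C content.

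**Figure D3:**
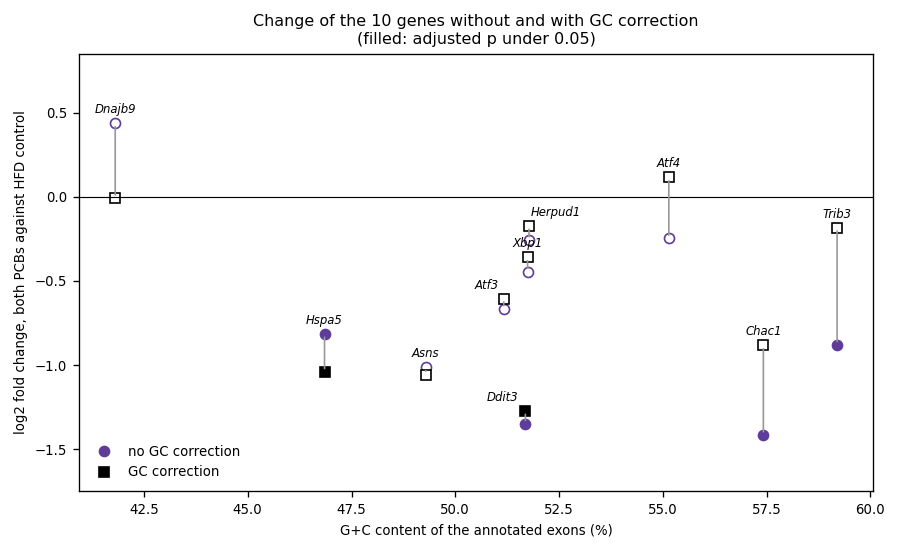
Log2 fold change of each gene with the combined exposure against the G+C content of its exons pooled over annotated transcripts (%), without (circles) and with (squares) the G+C correction, joined by a line; filled symbols passed an adjusted p of 0.05. Trib3 and Chac1, with 59.2% and 57.4% G+C, lose the call, Hspa5 and Ddit3 keep it, and Dnajb9 moves from 0.44 to -0.0094.

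The other genes of the same pathways were read from 5 lists. With Aroclor 1260 or PCB 126 alone, edgeR called none of their 97 genes. At an unadjusted p under 0.05 there were 8 of the 97 with Aroclor 1260 and 9 with PCB 126, against 17.2% and 14.7% of all tested genes, and DESeq2 called 2, both ATF4 and CHOP targets with PCB 126, where it called 2.06% of all genes. With the combined exposure 32.8% of all tested genes were called, 15.8% higher and 17.0% lower, or 3.76% higher and 5.37% lower after the G+C correction, and the counts below stand beside these shares. The upstream list held 13 tested genes, of which 4 were called higher and 2 lower (median log2 fold change 0.21 against -0.00096 over all genes). Mbtps2, the site-2 protease that releases ATF6, rose (6.22 ± 1.21 against 10.6 ± 1.17 CPM, log2 fold change 0.77, adjusted p = 0.00331), as did Ppp1r15b, the constitutive partner of the eIF2alpha phosphatase (123 ± 11.3 against 167 ± 11.4 CPM, log2 fold change 0.44, adjusted p = 0.00233). Creb3l3, a liver transcription factor cut like ATF6, fell (369.9 ± 32.04 against 256 ± 34.6 CPM, log2 fold change -0.53, adjusted p = 0.00234), as did Atf6b, a relative of ATF6 (10.3 ± 1.73 against 7.28 ± 1.37 CPM, log2 fold change -0.51, adjusted p = 0.00998). Ppp1r15b kept its call after the G+C correction at 0.26 (adjusted p = 0.0402) while Mbtps2 at 0.31 (adjusted p = 0.104), Creb3l3 at -0.053 (adjusted p = 0.822) and Atf6b, turning to 0.23 (adjusted p = 0.295), did not, and 1 gene of the list was then called higher and 1 lower.

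Among 33 further targets of ATF4 and CHOP, 10 were called lower with the combined exposure and none higher (median -0.077), against 17.0% lower and 15.8% higher of all tested genes. Atf5, an ATF4-like factor that is itself under eIF2alpha control, fell (277 ± 36.3 against 117 ± 17.1 CPM, log2 fold change -1.25, adjusted p = 0.00049). Eif4ebp1, the repressor of cap-dependent translation, fell (33.2 ± 3.05 against 20.8 ± 4.003 CPM, log2 fold change -0.68, adjusted p = 0.00359). The alanyl-tRNA synthetase Aars and the seryl-tRNA synthetase Sars fell as well (204 ± 19.6 against 142 ± 32.04 CPM, log2 fold change -0.52, adjusted p = 0.006999, and 56.3 ± 3.69 against 39.3 ± 6.68 CPM, log2 fold change -0.52, adjusted p = 0.00371). All 4 had groups that did not overlap, as did 8.14% of all tested genes in this direction. The 4 were named for being called with the largest changes in these same mice, so the lack of overlap adds no separate support. After the G+C correction 2 of the 33 were lower, Eif4ebp1 at -0.71 (adjusted p = 0.0139) and Sars at -0.39 (adjusted p = 0.0272), and 2 were higher, Atf5 being at -0.49 (adjusted p = 0.0582) and Aars at -0.36 (adjusted p = 0.0691).

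Among 19 ER chaperones and folding enzymes, 6 were lower and 1 higher (median -0.41), a share called in all near the 32.8% of all tested genes, and 4 in all were called without combined replicate 5. Creld2, an ER protein induced with BiP, fell (45.1 ± 25.4 against 17.5 ± 2.55 CPM, log2 fold change -1.36, adjusted p = 0.0156), as did the chaperone Hyou1 (125 ± 67.5 against 60.3 ± 10.3 CPM, log2 fold change -1.05, adjusted p = 0.0206) and Manf, a small protein of the ER lumen (80.8 ± 38.4 against 40.8 ± 5.78 CPM, log2 fold change -0.98, adjusted p = 0.0271). Ero1l, the oxidase that recharges protein disulfide isomerase, rose (8.68 ± 2.48 against 14.01 ± 1.58 CPM, log2 fold change 0.70, adjusted p = 0.0124). The 3 genes that fell varied far more among controls than among mice of the combined exposure, as Hspa5 did. Creld2 lost the call without control replicate 5 (adjusted p = 0.0607), Hyou1 without that mouse or combined replicate 5 (up to 0.0902), and Manf without either of these or combined replicate 1 (up to 0.1002). After the G+C correction 2 of the 19 were lower and none higher, against 5.37% and 3.76% of all genes. None of the 4 named genes was among them: Creld2 was at -1.07 (adjusted p = 0.102), Hyou1 at -0.85 (adjusted p = 0.121), Manf at -1.06 (adjusted p = 0.0523) and Ero1l at 0.30 (adjusted p = 0.239).

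Among 22 genes of ER-associated degradation and translocation, 6 were lower and 3 higher (median -0.13), against 17.0% and 15.8% of all tested genes. Syvn1, the ubiquitin ligase of ER-associated degradation, fell (67.2 ± 27.1 against 28.6 ± 7.34 CPM, log2 fold change -1.23, adjusted p = 0.00196). Edem2, which trims mannose from misfolded glycoproteins, fell (43.3 ± 3.38 against 29.2 ± 4.75 CPM, log2 fold change -0.57, adjusted p = 0.00126). Os9, a lectin that delivers such proteins, and the ubiquitin-conjugating enzyme Ube2g2 fell too (187 ± 14.7 against 129 ± 27.9 CPM, log2 fold change -0.53, adjusted p = 0.00332, and 31.3 ± 6.74 against 21.2 ± 3.52 CPM, log2 fold change -0.56, adjusted p = 0.00714). Syvn1 at -0.76 (adjusted p = 0.0462) and Edem2 at -0.50 (adjusted p = 0.00513) kept the call after the G+C correction, which left 4 of the 22 lower and none higher, against 5.37% and 3.76% of all genes, while Os9 was at -0.082 (adjusted p = 0.676) and Ube2g2 at -0.32 (adjusted p = 0.1600).

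Immediate early genes, which many stimuli induce quickly, were read beside Atf3. Of 10, 2 were called lower with the combined exposure and none higher (median -0.092), which is near the 17.0% of all tested genes called lower and below the 32.8% called in all. Junb fell (9.603 ± 5.34 against 3.22 ± 0.943 CPM, log2 fold change -1.58, adjusted p = 0.00226) and Ier2 did too (13.7 ± 8.48 against 7.37 ± 2.01 CPM, log2 fold change -0.90, adjusted p = 0.0407), and neither was called after the G+C correction (-0.71 (adjusted p = 0.1298) and -0.11 (adjusted p = 0.894)). Ier2 was called in 4 of the 10 fits that left out 1 mouse, and was lost without control replicate 1 or 5 or combined replicate 1, 3, 4 or 5 (adjusted p up to 0.210).

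**Figure D4:**
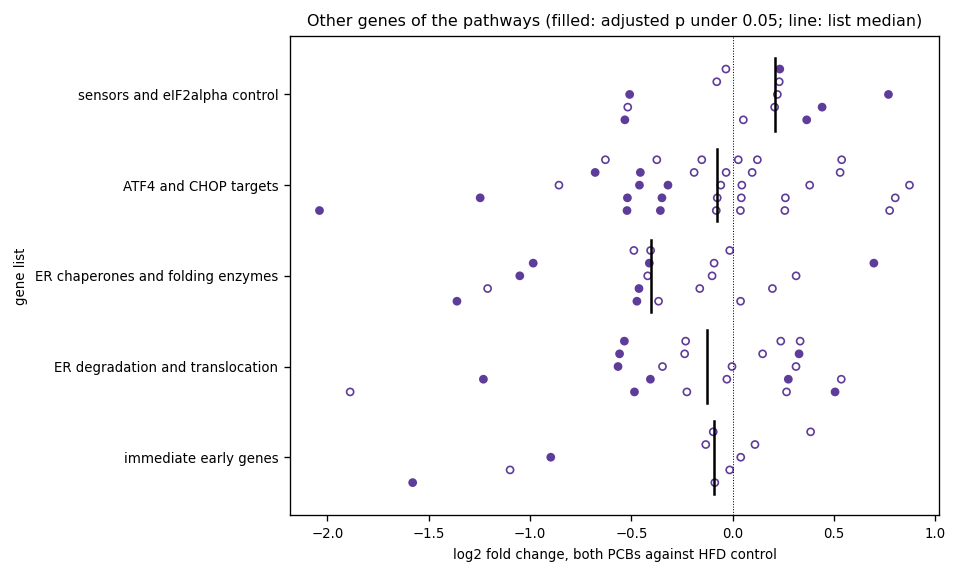
Log2 fold change with the combined exposure for each gene of the 5 lists; filled points passed an adjusted p of 0.05 and the vertical bar is the list's median. The median of the ER chaperones is -0.41, and no target of ATF4 and CHOP is a filled point above 0.

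The markers of liver cell types were set beside these results. With the combined exposure 15.8% of all tested genes were called higher and 17.0% lower, or 3.76% and 5.37% after the G+C correction. Hepatocyte markers (Alb, Ttr, Apoa1, Serpina1a, Tat and Cps1) summed to between 76994.5 and 85737 CPM in control and 71447 and 99589 CPM in combined libraries, and 3 of 6 (Ttr, Apoa1 and Serpina1a) were called lower with the combined exposure. Stellate cell markers summed to between 137 and 291 CPM in control and 301 and 350.3 CPM in combined libraries, with 3 of 6 called higher and 1 lower and Dcn the most abundant. Kupffer and macrophage markers summed to 176 to 412 CPM in control and 236 to 318 CPM in combined libraries (1 of 6 called higher), and sinusoidal endothelial markers to 82.9 to 170.1 and 115 to 139 CPM (1 of 5 called lower). Cholangiocyte markers summed to 66.0 to 74.5 and 62.9 to 129.97 CPM, with none of 5 called by edgeR and 1 at an unadjusted p under 0.05. Plasma cell markers (3 of 5 tested, of which Derl3 is also in the list of ER-associated degradation) stayed between 1.96 and 17.6 CPM and neutrophil markers (4 of 5 tested) between 0.788 and 6.27 CPM in all libraries. Of the pancreatic markers (5 of 7 tested), Cela1 held nearly all the counts and the other 4 tested were at 0 in some libraries, with no more than 0.482 CPM in any. The 5 summed to 15.2 to 22.2 CPM in control and 10.6 to 14.6 CPM in combined libraries, and edgeR called 1 of them lower (adjusted p = 0.0130). After the G+C correction, 1 of 6 hepatocyte markers and 1 of 5 endothelial markers were called lower, and none of the stellate, Kupffer and macrophage, cholangiocyte or pancreatic markers was called. The part of the stellate and hepatocyte markers in the changes of the 10 genes was not tested.

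Mouse-to-mouse covariation within groups was read from log2 CPM after the group means were subtracted, over 20 mice. Of 45 pairs of the 10 genes, 34 correlated positively and 2 passed a permutation test within groups after adjustment over the 45. Herpud1 and Dnajb9 varied together (Pearson r = 0.84, permutation p = 6e-05, adjusted p = 0.0025; Spearman rho = 0.75, p = 0.00059, adjusted p = 0.0265). Hspa5 and Xbp1 did so too (r = 0.81, permutation p = 0.00011, adjusted p = 0.0025; rho = 0.73, p = 0.00129, adjusted p = 0.0290). Without the 2 mice farthest from the median of the first gene, r was 0.78 and 0.76, and with G+C-corrected levels it was 0.90 and 0.86. The most negative pair was Asns and Trib3 (r = -0.60, permutation p = 0.0216, adjusted p = 0.162), and it weakened to -0.45 without the 2 farthest mice. Hspa5 and Ddit3, which were called together with the combined exposure, had r = 0.56 within groups (permutation p = 0.0177, adjusted p = 0.159). All levels of 1 library share its depth, so these are not independent measurements.

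**Figure D5:**
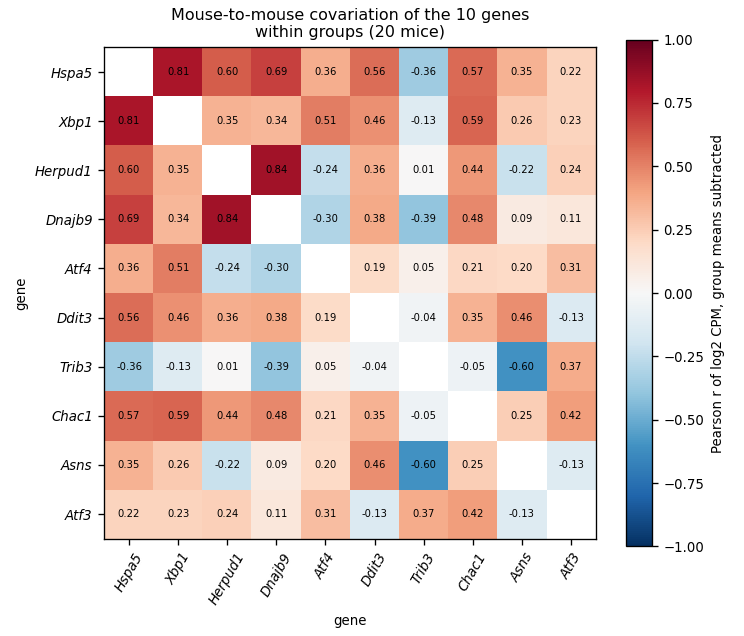
Pearson r between each pair of the 10 genes over 20 mice, from log2 CPM with group means subtracted (colour and number). The highest values are 0.84 for Herpud1 with Dnajb9 and 0.81 for Hspa5 with Xbp1, and the lowest is -0.60 for Asns with Trib3.

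Among the other genes with a mean of at least 1 CPM (11341 compared), the 5 whose pattern over the 20 libraries, with group means subtracted, was most like that of Hspa5 were Manf (r = 0.93), Hsp90b1 (0.93), Ero1lb (0.90), Pdia4 (0.90) and Ahsa2 (0.90). For Asns they were Cyb561 (0.88), Reep5 (0.85), Psat1 (0.83), Tulp3 (0.82) and Zfp160 (0.80). For Ddit3 they were Osgin1 (0.78), Slc13a5 (0.78), Ifi27 (0.77), Zfp472 (0.77) and Spon2 (0.77). These are the highest of many values and carry no test.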

How the data were processed

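Livers of 20 mice in 4 groups of 5 were analysed from the unnormalized counts that the authors deposited as 1 table, with Ensembl genes as rows. Per the labels and the methods, the authors sequenced poly(A) RNA with a stranded kit in 2 runs (which library was in which run is not given in the sources used here), checked the untrimmed reads with FastQC 0.10.1, mapped them with STAR 2.6 (genome GRCm38.p6) and summed them over genes with HTSeq 0.10.0. The annotation release and strand setting of the counting are not given in the sources used here. The title of PCB 126 replicate 2 was followed over a differing number in its bracket.

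The 10 genes and all lists were chosen with earlier results of these data known. Symbols, positions, exon length and G+C content came from GENCODE M21 and promoters from RefSeq. G+C content was pooled over all transcripts of a gene, so that exons shared between transcripts count more than once. Genes with at least 10 counts in all were fitted in one model of the 4 groups with edgeR 4.0.16 (R 4.3.3), TMM scaling and the quasi-likelihood test on 16 residual degrees of freedom. P-values were adjusted by Benjamini-Hochberg over the 15522 genes, and a gene was called at an adjusted p under 0.05. CPM are counts per TMM-scaled library. DESeq2 1.42.0 was an alternative, as were other scalings, filters, a replicate block, terms for G+C content and leaving out each mouse. The G+C correction subtracted a spline of 6 degrees of freedom fitted to each library. The edgeR fit, with and without the G+C correction, was tested on simulated data for the combined exposure against control. The other alternatives and comparisons were not. For correlations, 100000 permutations were drawn within groups. Genes named from a list were up to 4 per list and comparison of the largest change (called, and averaging 1 CPM or more), and for 3 members the 5 genes of highest correlation. Pairs of mice of a group differed by at least 16.8 times the sampling noise (chi-square per degree of freedom), so none was a duplicate. Labels name separate mice, and intervals cover the spread between them.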

Additional observations from a re-analysis of the deposited data

Results flagged for a closer look

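In 4 of 40 combinations of gene and group, 1 mouse lay far from the other 4 by Dixon's criterion, which chance alone would give in about 1 of 20. Atf3 was at 58.9 CPM in PCB 126 replicate 2, against 20.01 to 28.5 CPM in the others. Asns was at 6.67 CPM in control replicate 4, against 0.342 to 1.25 CPM in the others. Asns was also at 2.66 CPM in Aroclor 1260 replicate 3, against 0.438 to 0.7101 CPM. Chac1 was at 13.8 CPM in control replicate 5, against 2.59 to 4.91 CPM. No sample was left out of the reported values for this.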

How the results depend on the processing

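The direction of Ddit3 and Hspa5 below control was the same in all fits of the 3 exposures. These 2 genes were the members still called with the combined exposure after any G+C correction, and there Ddit3 was called in 10 of 11 alternatives that kept all mice and in all 10 fits without 1 mouse. Signs changed as follows, and the cause was not tested. With the filter on FPKM the value was 0.0062 for Hspa5, combined against PCB 126. With the replicate block the value was 0.00023 for Hspa5, combined against PCB 126, -0.013 for Ddit3, combined against PCB 126, 0.17 for Atf3 with Aroclor 1260, 0.13 for Atf3 with PCB 126, 0.014 for Trib3 with Aroclor 1260. With the G+C correction the value was 0.041 for Atf4 with PCB 126, 0.11 for Atf4 with the combined exposure, 0.22 for Trib3 with Aroclor 1260, -0.0094 for Dnajb9 with the combined exposure, 0.23 for Atf6b with the combined exposure. With the G+C correction with the replicate block the value was 0.042 for Atf4 with PCB 126, 0.12 for Atf4 with the combined exposure, 0.17 for Atf3 with Aroclor 1260, 0.16 for Atf3 with PCB 126, 0.26 for Trib3 with Aroclor 1260, 0.23 for Atf6b with the combined exposure. With the correction for G+C content and length the value was 0.040 for Atf4 with PCB 126, 0.14 for Atf4 with the combined exposure, 0.25 for Trib3 with Aroclor 1260, 0.23 for Atf6b with the combined exposure. With the G+C slope as a term the value was 0.044 for Atf4 with PCB 126, 0.044 for Atf4 with the combined exposure, 0.63 for Trib3 with Aroclor 1260, 0.59 for Trib3 with the combined exposure, -0.53 for Dnajb9 with the combined exposure, -0.11 for Dnajb9, combined against PCB 126, -0.18 for Mbtps2 with the combined exposure, 0.16 for Eif4ebp1 with the combined exposure, 0.012 for Sars with the combined exposure, -0.21 for Ero1l with the combined exposure. Leaving out 1 mouse at a time gave -0.16 to 0.11 for Hspa5, combined against PCB 126, -0.28 to 0.16 for Ddit3, combined against PCB 126, -0.11 to 0.078 for Atf4 with PCB 126, -0.56 to 0.073 for Atf3 with Aroclor 1260, -0.48 to 0.18 for Atf3 with PCB 126, -1.82 to 0.11 for Asns with Aroclor 1260, -0.94 to 0.48 for Asns with PCB 126, -1.69 to 0.13 for Asns with the combined exposure, -0.26 to 0.16 for Trib3 with Aroclor 1260, -0.29 to 0.15 for Herpud1 with Aroclor 1260, -0.40 to 0.041 for Herpud1 with the combined exposure, -0.37 to 0.025 for Dnajb9 with PCB 126, -0.84 to 0.22 for Chac1 with PCB 126.

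Counts of called members moved with some settings. With Aroclor 1260 the 0 became 1 with DESeq2. With PCB 126 the 0 became 1 with DESeq2, the FPKM filter, the replicate block, the 3 G+C corrections or the slope term, and ranged from 0 to 1 without 1 mouse. With the combined exposure the 4 became 2 in a fit of the 2 groups alone or with any of the 3 G+C corrections, 0 with the slope term and 1 at an adjusted p under 0.01, and ranged from 1 to 4 without 1 mouse. The 3 called without control replicate 5 included Dnajb9, which was higher. Against PCB 126 the 0 became 1 with upper-quartile scaling, DESeq2, the FPKM filter, the 2 groups alone or the replicate block, and against Aroclor 1260 it became 1 with DESeq2.

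Of the lists with the combined exposure, the 6 called sensors and eIF2alpha genes became 2 (1 with the replicate block added) with G+C corrections. The 10 targets of ATF4 and CHOP became 4, or 6 with length corrected too, and 5 at an adjusted p under 0.01. The 7 chaperones became 2 (3 with the block added), 1 at an adjusted p under 0.01, and 4 to 10 without 1 mouse. The 9 genes of degradation and translocation became 4 (3 with the block added), and 14 with the FPKM filter. The 2 immediate early genes became 0 with G+C corrections, 1 in the 2 groups alone or at an adjusted p under 0.01, and 1 to 2 without 1 mouse. With the slope term all 5 lists had 0. Of the targets of ATF4 and CHOP, the slope term called 1 with Aroclor 1260 and 2 with PCB 126, where DESeq2 called 2, the FPKM filter or the replicate block 1, and fits without 1 mouse 0 to 1 (1 without control or PCB 126 replicate 3).

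The labels do not say that a replicate number marks a shared litter, batch or day. Same-numbered mice of different groups had correlated deviations between -0.26 and 0.74 (13 of 30 pairs over 0.1), and 9 of 20 libraries correlated best with their own number, against 4 if the numbers carried nothing. The main fit did not take the numbers as pairs, and these values do not settle whether they mark shared structure. With the replicate block edgeR called 26 genes with Aroclor 1260, 101 with PCB 126 and 5292 with both, against 0, 18 and 5089 without it. Ddit3 was then called with PCB 126 (adjusted p = 0.0162). With the replicate block Chac1 lost its call with the combined exposure (adjusted p = 0.0623). Asns was removed by the FPKM filter and has no DESeq2 adjusted p in 1 comparison. Low counts limit Asns and Chac1, whose lowest libraries held 7 and 36 reads.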
